A study of Mus musculus with 6 samples.

Results

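The non-classical MHC class I genes of the mouse are the H2-M, H2-Q and H2-T genes, which lie beside the classical H2-K1 and H2-D1 genes on chromosome 17. Of these genes 10 were followed, by their Entrez gene IDs: H2-M2, H2-M3, H2-Q4, H2-Q6, H2-Q7, H2-Q10, H2-T10, H2-T22, H2-T23 and H2-T24. They are 10 of 27179 gene IDs with read counts. The 10 genes were chosen by measured values, since results of the CpG comparison were known when they were picked. Their differences between CpG and untreated libraries are therefore given as a description: no p-value is printed for them, and the counts called by the fit over all genes only describe where they fell.

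RNA-seq counts came from CD8-negative dendritic cells sorted out of the spleens of C57BL/6 mice, 3 libraries from CpG-pretreated and 3 from untreated animals. Libraries of each group carry the replicate numbers 2, 3 and 4, and the series design text calls them biological replicates. CpG oligonucleotides are sensed by Toll-like receptor 9, and the title of the series speaks of paralysed cells after a systemic inflammatory syndrome. The sources used here do not state the CpG dose, sequence, route or interval, the age of the mice, or whether a sample pooled several mice. Both groups share the strain, the sort and the lysis without culture, and no genetic change is named in the labels. The p-values measure only the spread between these libraries.

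Class I molecules are heavy chains that pair with beta-2-microglobulin, and the classical ones display peptides on nearly every cell for CD8 T cells. The non-classical ones are far less variable between individuals, and several are read by natural killer cells, gamma-delta T cells or T cells with a narrow repertoire. H2-T23 encodes Qa-1, which presents leader peptides of classical class I chains and is the ligand of the inhibitory receptor CD94/NKG2A. H2-M3 presents N-formylated peptides of bacteria and mitochondria. H2-Q6 and H2-Q7 encode Qa-2, a peptide-presenting molecule that can be anchored in the membrane by a lipid, and H2-Q10 encodes a secreted molecule made by the liver. H2-T10 and H2-T22 molecules bind no peptide and are ligands of gamma-delta T cell receptors.

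Promoters of 8 of the 10 genes were matched in RefSeq (GRCm38.p6), each covering 250 bases before to 50 after the start site of the promoter table. For H2-Q7 that site lies inside the annotated span of the gene, a little after its first base, so its positions are counted from there. Those of H2-M2, H2-Q7, H2-T22, H2-M3 and H2-T23 are shown because these genes span the range of differences between CpG and untreated libraries. Capitals mark matches, on either strand, to 5 short patterns: a kappaB-like pattern (GGG followed after 5 bases by CC), the core of an interferon-stimulated response element (GAAA followed after 2 bases by GAAA), a STAT site (TTCNNNGAA), and the stretches TTTCACTT and TGATGAC. The last 2 stretches were chosen after the promoters had been read. The H2-M2 promoter lies at chr17:37483505-37483804 on the minus strand, that of H2-Q7 at chr17:35438905-35439204 on the plus strand, that of H2-T22 at chr17:36042693-36042992 on the minus strand, that of H2-M3 at chr17:37269984-37270283 on the plus strand and that of H2-T23 at chr17:36032652-36032951 on the minus strand.
H2-M2: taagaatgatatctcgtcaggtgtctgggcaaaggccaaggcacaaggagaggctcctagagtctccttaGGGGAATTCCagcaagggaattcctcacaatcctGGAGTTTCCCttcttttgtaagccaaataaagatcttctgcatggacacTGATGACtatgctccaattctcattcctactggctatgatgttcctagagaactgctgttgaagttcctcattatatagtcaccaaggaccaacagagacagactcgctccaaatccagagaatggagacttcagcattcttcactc
H2-Q7: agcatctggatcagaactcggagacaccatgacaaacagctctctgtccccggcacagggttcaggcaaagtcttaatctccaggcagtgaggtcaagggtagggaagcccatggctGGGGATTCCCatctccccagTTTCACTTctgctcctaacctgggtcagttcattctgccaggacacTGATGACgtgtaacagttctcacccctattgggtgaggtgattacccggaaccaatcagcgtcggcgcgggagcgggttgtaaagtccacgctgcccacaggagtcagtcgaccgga
H2-T22: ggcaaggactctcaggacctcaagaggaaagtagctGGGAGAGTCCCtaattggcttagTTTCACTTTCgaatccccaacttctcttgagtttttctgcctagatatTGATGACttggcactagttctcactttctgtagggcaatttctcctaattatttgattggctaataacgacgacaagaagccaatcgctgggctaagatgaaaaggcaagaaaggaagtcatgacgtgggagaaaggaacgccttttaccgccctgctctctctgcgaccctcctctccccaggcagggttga
H2-M3: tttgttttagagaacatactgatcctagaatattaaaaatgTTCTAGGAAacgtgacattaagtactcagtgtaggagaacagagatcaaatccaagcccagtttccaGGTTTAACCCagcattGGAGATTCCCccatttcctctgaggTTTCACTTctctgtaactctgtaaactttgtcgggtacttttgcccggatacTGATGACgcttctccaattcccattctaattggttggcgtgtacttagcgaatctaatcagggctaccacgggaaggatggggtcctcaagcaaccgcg
H2-T23: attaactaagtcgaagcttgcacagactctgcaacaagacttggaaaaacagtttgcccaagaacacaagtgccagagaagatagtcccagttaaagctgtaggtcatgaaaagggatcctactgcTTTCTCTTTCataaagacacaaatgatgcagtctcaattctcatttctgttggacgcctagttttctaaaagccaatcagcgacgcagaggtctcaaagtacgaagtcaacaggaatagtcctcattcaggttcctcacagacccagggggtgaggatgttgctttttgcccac

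The stretch TTTCACTT was in 6 of the 8 promoters, those of H2-M3, H2-Q4, H2-Q6, H2-Q7, H2-Q10 and H2-T22, and it was not found in those of H2-M2 and H2-T23. It occurs in 1.6% of all 32851 promoters in the table. The stretch TGATGAC was in 6 of the 8 promoters, those of H2-M2, H2-M3, H2-Q4, H2-Q6, H2-Q7 and H2-T22, against 3.23% of all promoters. In these 6 promoters it lay between 43 and 143 bases before the start. Because both stretches were picked from these promoters, their counts among them have no test.

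The response element core was found in the promoters of H2-T22 and H2-T23, against 3.44% of all promoters, and in H2-T22 it overlapped TTTCACTT. The STAT site was found in H2-M3 alone of the 8, against 8.3% of all promoters. The kappaB-like pattern was in 7 of the 8, all but H2-T23, and in 50.8% of all promoters. CCAAT, the Y box that NF-Y binds, was likewise in 7 of the 8, all but H2-Q10, and in 37.4% of all promoters. One CCAAT match of H2-M3 overlapped a kappaB-like match. These matches describe letters in a window and are not measured binding.

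Among themselves the 4 H2-Q promoters were the more alike, with 59.7% to 77.8% identical bases in their 6 pairs. The other 22 pairs had 42.5% to 54.2%. The H2-Q7 promoter thus differs from that of H2-M2 or H2-T22 over much of its length, while the marked stretches, where present, follow in the same order.

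**Figure D1:**
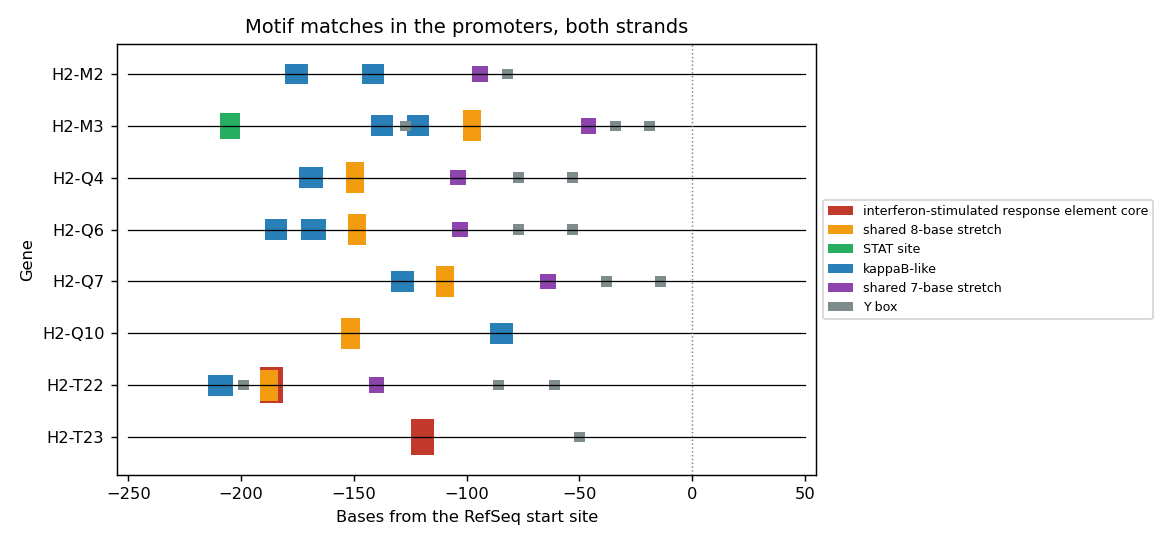
Positions of the matched patterns in the 8 promoters, in bases from the RefSeq start site (x axis), 1 line a gene. Coloured boxes mark the response element core, the STAT site, kappaB-like matches, CCAAT (Y box) and the 2 stretches that recur, and the 8-base stretch is in 6 of the 8 lines, not in H2-M2 or H2-T23.

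Total counts were 7855500 to 8228140 a library, so that 1 count stood for 0.1215 to 0.1273 CPM (counts-per-million, the usual scaling to library size). Markers of conventional dendritic cells included Flt3, Zbtb46, Itgax and MHC class II genes. They summed to 36500 to 43000 CPM in CpG and 39600 to 47800 CPM in untreated libraries. Cd8a was at 1.64 to 4.69 CPM in CpG and 1.23 to 4.13 CPM in untreated libraries. It is 1 of 7 markers of the cDC1 type of dendritic cell, which summed to 126 to 170 CPM in CpG and 127 to 161 CPM in untreated libraries. Of these 7, Xcr1 was higher in all CpG libraries, at 4.66 to 14.6 CPM against 3.32 to 4.63 CPM in untreated libraries. Tlr3 was also higher in all CpG libraries, while the groups of Cd8a, Clec9a, Cadm1, Itgae and Batf3 overlapped. The part of cDC1 cells in the members' values was not tested. Erythroid markers, of which 10 of 12 had a row and Hba-a1 was at 0 in all 6, summed to 208 to 993 CPM in CpG and 22 to 88.8 CPM in untreated libraries. Red pulp macrophage markers, with a row for 13 of 13 and none at 0 throughout, summed to 139 to 191 CPM in CpG and 313 to 447 CPM in untreated libraries. In such bulk libraries fewer cells of a type and less RNA per cell cannot be told apart.

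The genes differed widely in level. Per length, as CPM divided by the deposited gene length in kilobases (RPKM), H2-T23 was the highest in both groups, at 276 ± 30.4 RPKM in CpG and 242 ± 35.0 RPKM in untreated libraries (mean ± SD, n = 3 each). H2-Q10 was the lowest in both, at 0.959 ± 0.334 RPKM in CpG and 0.810 ± 0.169 RPKM in untreated libraries. In CpG libraries the order ran H2-T23, H2-Q4, H2-Q6, H2-Q7, H2-M3, H2-T22, H2-M2, H2-T24, H2-T10, H2-Q10. Ranges of neighbours overlapped from H2-T23 down to H2-M3 and between H2-M2 and H2-T24, and the other neighbours did not overlap.

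In untreated libraries the order ran H2-T23, H2-Q4, H2-M3, H2-Q6, H2-M2, H2-Q7, H2-T22, H2-T24, H2-T10, H2-Q10. There the overlapping neighbours were H2-Q4 with H2-M3, H2-M3 with H2-Q6, and H2-M2 with H2-Q7. H2-Q7 lay above H2-M2 in the CpG libraries, whereas their ranges overlapped in the untreated ones. H2-M2 was at 18.7 ± 3.71 RPKM in CpG and 66.4 ± 12.4 RPKM in untreated libraries, and H2-Q7 at 114 ± 28.4 RPKM in CpG and 50.9 ± 7.64 RPKM in untreated libraries.

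**Figure D2:**
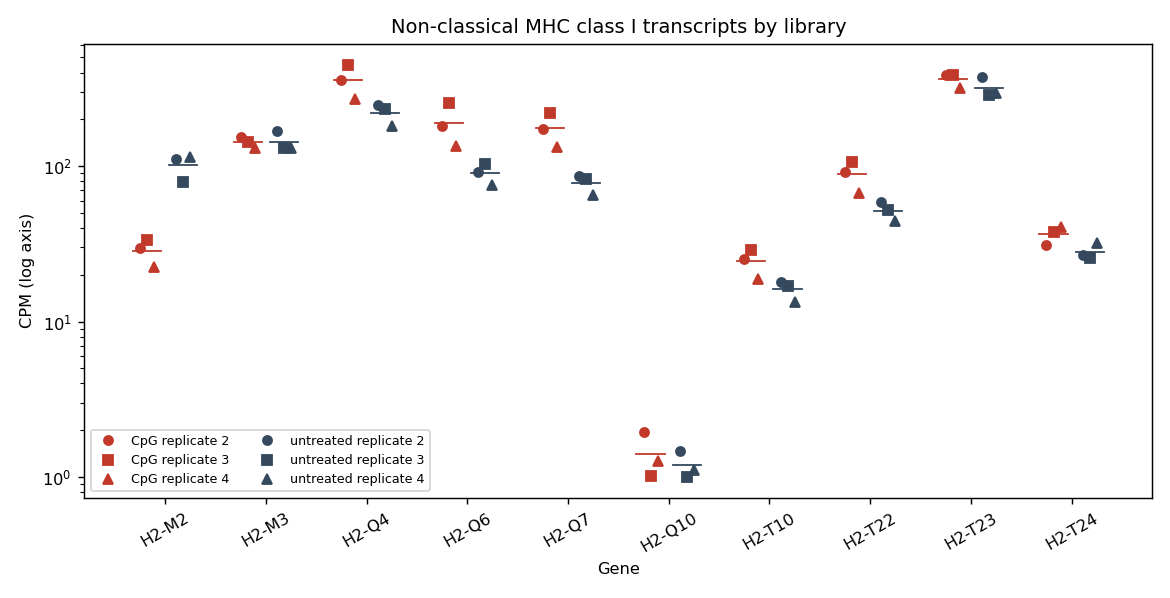
Level of each of the 10 genes in CPM (y axis, log axis) in every library, CpG in red left of untreated in dark blue, with the replicate number shown by the symbol and the group mean by a line. H2-M2 lies lower in all CpG libraries, H2-Q4, H2-Q6, H2-Q7, H2-T10 and H2-T22 lie higher, and H2-Q10 stays between 1.0 and 1.96 CPM.

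The Qa-2 genes among the members had their 2 highest fold changes. H2-Q7 (gene ID 15018, chr17:35439140-35443773) had 173, 221 and 133 CPM in CpG libraries 2, 3 and 4, against 87.0, 82.8 and 64.9 CPM in untreated libraries 2, 3 and 4. Every CpG library was above every untreated one, with CpG library 3 the highest and CpG library 4 the lowest of the CpG group. The fitted log2 fold change (CpG over untreated, in all that follows) was 1.17 with a standard error (SE) of 0.19, or 2.25-fold.

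H2-Q6 (gene ID 110557, chr17:35424850-35430055), the other Qa-2 gene among the members, had 180, 254 and 135 CPM in CpG libraries 2, 3 and 4, against 92.3, 103 and 75.7 CPM in untreated libraries 2, 3 and 4. The groups did not overlap, and again CpG library 3 was the highest and CpG library 4 the lowest of its group. The log2 fold change was 1.07 (SE 0.22), or 2.10-fold.

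H2-Q4 (gene ID 15015, chr17:35379617-35384674) had the highest CPM of the H2-Q genes, although per length its range in CpG libraries overlapped with that of H2-Q6. It had 356, 450 and 269 CPM in CpG libraries 2, 3 and 4, against 248, 234 and 181 CPM in untreated libraries 2, 3 and 4. The groups did not overlap, but the lowest CpG library and the highest untreated library lay close together. Its log2 fold change was 0.70 (SE 0.19), or 1.62-fold.

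H2-Q10 (gene ID 15007, chr17:35470089-35474563), the gene of the secreted liver molecule, was close to the limit of counting. It had 16, 8 and 10 counts in CpG libraries 2, 3 and 4, against 12, 8 and 9 counts in untreated libraries 2, 3 and 4. The groups overlapped. It did not pass the filter on low counts and is the only one of the 10 genes left out of the fit.

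H2-T22 (gene ID 15039, chr17:36037128-36042742) and H2-T10 (gene ID 15024, chr17:36115871-36121444) are the ligands of gamma-delta receptors. RefSeq lists H2-T10 as a transcribed pseudogene in this strain's assembly. H2-T22 had 92.0, 107 and 67.6 CPM in CpG libraries 2, 3 and 4, against 58.5, 52.3 and 44.3 CPM in untreated libraries 2, 3 and 4. H2-T10 had 25.3, 29.0 and 18.8 CPM in CpG libraries 2, 3 and 4, against 17.9, 17.0 and 13.4 CPM in untreated libraries 2, 3 and 4. Both genes kept the groups apart, with CpG library 3 the highest and CpG library 4 the lowest CpG library, as for H2-Q4, H2-Q6 and H2-Q7. The log2 fold change was 0.78 (SE 0.18) for H2-T22 and 0.60 (SE 0.19) for H2-T10.

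H2-T23 (gene ID 15040, chr17:36029977-36032701), the Qa-1 gene, had 385, 387 and 317 CPM in CpG libraries 2, 3 and 4, against 372, 289 and 296 CPM in untreated libraries 2, 3 and 4. The groups overlapped through untreated library 2, and the log2 fold change of 0.19 (SE 0.13) was near the spread between libraries. H2-T24 (gene ID 15042, chr17:36003471-36020800) had 30.9, 37.7 and 40.6 CPM in CpG libraries 2, 3 and 4, against 26.8, 25.5 and 32.2 CPM in untreated libraries 2, 3 and 4. Its groups overlapped as well, and here CpG library 4 was the highest, unlike in H2-Q and the other H2-T genes. The log2 fold change was 0.37 (SE 0.14).

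H2-M3 (gene ID 14991, chr17:37270234-37274485), which presents N-formylated peptides, had 153, 143 and 130 CPM in CpG libraries 2, 3 and 4, against 168, 131 and 130 CPM in untreated libraries 2, 3 and 4. The groups lay over each other, with a log2 fold change of -0.01 (SE 0.13).

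H2-M2 (gene ID 14990, chr17:37480851-37483554) was the member with the lowest fold change. It had 29.7, 33.6 and 22.4 CPM in CpG libraries 2, 3 and 4, against 111, 79.6 and 114 CPM in untreated libraries 2, 3 and 4. The highest CpG library was under the lowest untreated library, and CpG library 4 was the lowest of all 6. The log2 fold change was -1.83 (SE 0.19), a CpG level 0.282 times the untreated one. Among same-numbered libraries the log2 ratio was -1.90 for number 2, -1.24 for number 3 and -2.34 for number 4. The summed macrophage markers were lower in the CpG libraries too, at 139, 179 and 191 CPM in CpG libraries 2, 3 and 4, against 313, 417 and 447 CPM in untreated libraries 2, 3 and 4, and their part in the H2-M2 result was not tested. The genes nearest to H2-M2 in profile were C1qa, itself one of the summed markers, Apoe and Meis3, and none of them was a close match.

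**Figure D3:**
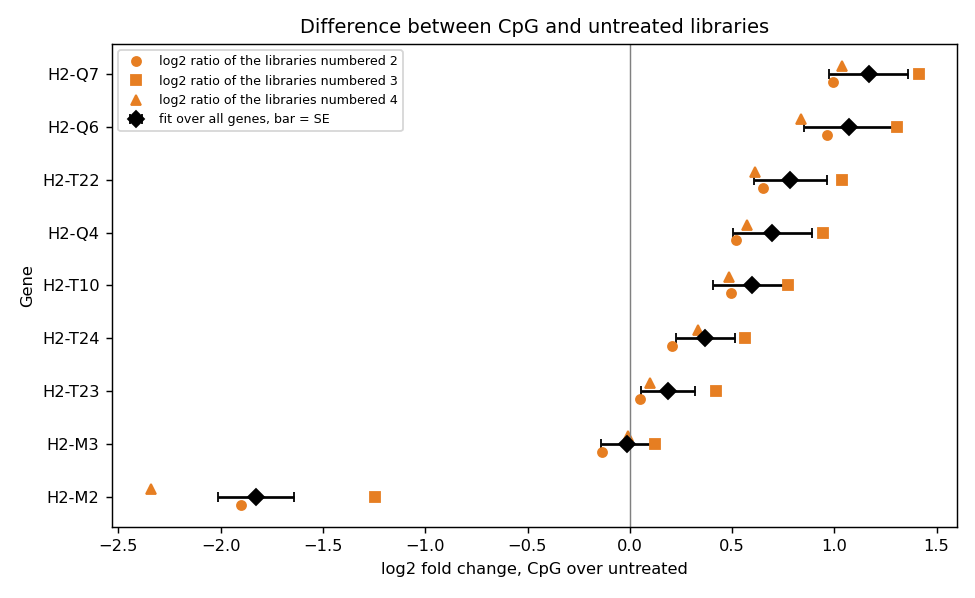
Log2 fold change of CpG over untreated (x axis) for the 9 genes in the fit (y axis): black diamonds with SE bars are the fit, and orange symbols are the log2 ratios of same-numbered libraries. H2-Q7 is at 1.17 and H2-M2 at -1.83, and the number 3 pair is the highest of the 3 pairs in each of the 9 genes.

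Of the 9 genes in the fit, 7 had a log2 fold change above 0, with a median of 0.60, beside -0.005 over all 11602 genes tested. In edgeR's quasi-likelihood test with Benjamini-Hochberg adjustment, 1 of the 9 was called higher (H2-Q7) and 1 was called lower (H2-M2), at an adjusted p under 0.05. Over all genes 0.474% were called higher and 0.5% lower. Groups that did not overlap were found for 5 of the 9 with CpG higher (H2-Q4, H2-Q6, H2-Q7, H2-T10 and H2-T22) and for 1 with CpG lower (H2-M2), against 9.2% and 9.47% of all genes. The genes were picked on this contrast, so that nothing is read from these counts.

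With the replicate number as a block, 6 of the 9 were called higher (H2-Q4, H2-Q6, H2-Q7, H2-T10, H2-T22 and H2-T24) and 1 lower (H2-M2), while over all genes 4.73% were called higher and 3.78% lower. The fold changes moved little, from 0.37 (SE 0.10) for H2-T24 to 1.15 (SE 0.09) for H2-Q7 among those called higher, and -1.82 (SE 0.22) for H2-M2. The SEs of H2-Q4 (0.09), H2-Q6 (0.09) and H2-T22 (0.10) were smaller than without the block. In H2-Q6 library 3 was the highest and library 4 the lowest in both groups. In H2-Q4 and H2-T22 library 4 was the lowest in both groups, but library 3 was the highest in the CpG group only.

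Single libraries decided some of these calls. Without CpG library 4, H2-Q4, H2-Q6 and H2-T22 were called higher too, at log2 fold changes of 0.86, 1.27 and 0.95. The call of H2-Q7 was lost when CpG library 2 or 3 or any 1 of the untreated libraries was left out (0.98 to 1.26), and that of H2-M2 without CpG library 2 (-1.85), CpG library 3 (-1.95) or untreated library 4 (-1.74). Calls over all genes moved too, from 113 with all libraries to 386 without CpG library 4. They fell to 0 without CpG library 2 or 3, and to 34, 2 and 1 without untreated libraries 2, 3 and 4. These shifts are thus not particular to the members. CpG library 4 also had the lowest erythroid sum of its group, 208 CPM, against 993 CPM in CpG library 2 and 935 CPM in CpG library 3, and the part of these cells in the members' values was not tested.

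Read assignment bears on those of these genes that share sequence with others, such as H2-Q6 with H2-Q7 and H2-T10 with H2-T22. The share of a gene's 75-base windows that occur exactly in another gene of the GENCODE M21 transcripts was 0% for H2-M2 and H2-M3, 0.459% for H2-T24 and 4.41% for H2-Q10. It was 7.91% for H2-Q4, 13.1% for H2-T23, 17.9% for H2-Q6, 20.7% for H2-T10, 22.6% for H2-Q7 and 23.7% for H2-T22. H2-Q6 and H2-Q7 share 197 windows, and 20.7% of the H2-T10 windows occur in H2-T22. H2-Q7 also shares 194 windows, 11.2% of its own, with H2-Q5, for which no row was found by symbol. Summing H2-Q6 and H2-Q7 cannot show whether reads of H2-Q5 were counted in them. The values of the H2-Q genes, H2-T10, H2-T22 and H2-T23 are therefore uncertain as to the copy, while H2-M2 and H2-M3 are free of this at 75 bases. The read length is not stated, and with 50-base windows the shares were larger. They were then 24.3% for H2-Q4, 34.9% for H2-Q7 and 42.8% for H2-T22, and 1.61% for H2-M2 and 0.576% for H2-M3. When H2-Q6 and H2-Q7 were summed, the log2 fold change was 1.12 (SE 0.20), and the sum was not called. For the sum of H2-T10 and H2-T22 it was 0.74 (SE 0.18), likewise not called.

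The make-up of the non-classical class I transcripts differed between the groups. Of the summed RPKM of the 10 genes, H2-M2 held 1.96%, 1.90% and 1.87% in CpG libraries 2, 3 and 4, against 8.91%, 7.44% and 11.3% in untreated libraries 2, 3 and 4. The H2-Q genes held 50.1%, 56.4% and 47.8% in CpG libraries 2, 3 and 4, against 35.6%, 41.3% and 33.7% in untreated libraries 2, 3 and 4. These 2 shares did not overlap between groups, with H2-M2 the smaller and H2-Q the larger part in CpG libraries.

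H2-M3 held 10.8%, 8.67% and 11.6% in CpG libraries 2, 3 and 4, against 14.5%, 13.2% and 13.9% in untreated libraries 2, 3 and 4. The H2-T genes held 37.1%, 33.0% and 38.7% in CpG libraries 2, 3 and 4, against 41.0%, 38.1% and 41.1% in untreated libraries 2, 3 and 4. The H2-M3 share was smaller in all CpG libraries and the H2-T share overlapped between groups, although the H2-M3 level itself was about the same and those of the H2-T genes were no lower, because shares of a sum move together. The ratio of H2-Q7 to H2-M2 in RPKM was 5.80, 6.53 and 5.92 in CpG libraries 2, 3 and 4, against 0.781, 1.03 and 0.568 in untreated libraries 2, 3 and 4. H2-Q7 and H2-M2 had the highest and the lowest fold change of the members, so this ratio only restates those differences.

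**Figure D4:**
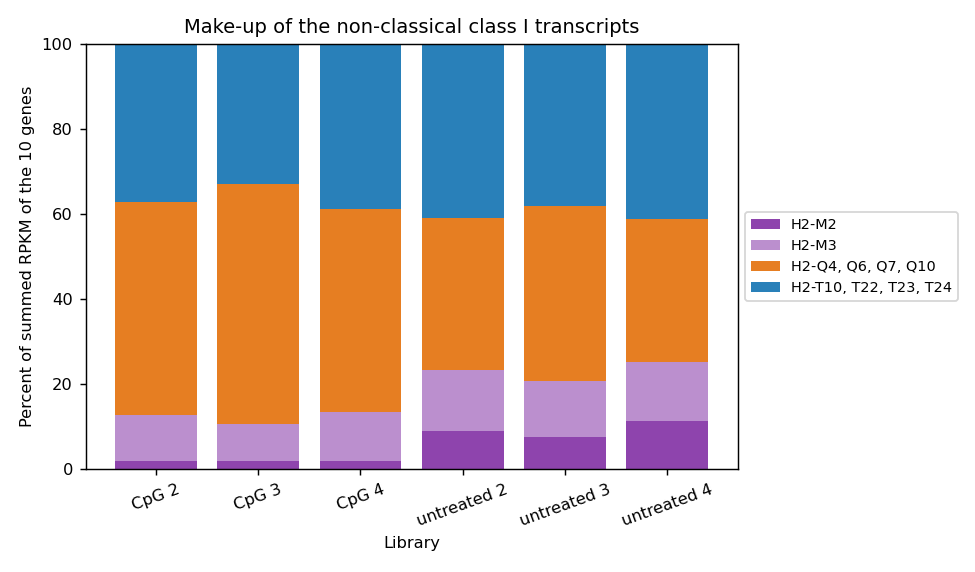
Percent of the summed RPKM of the 10 genes (y axis) held by H2-M2, H2-M3, the H2-Q genes and the H2-T genes in each library (x axis), CpG libraries left of untreated ones. The H2-M2 band is under 2% in the CpG libraries and 7.44% to 11.3% in the untreated ones, and the H2-Q band is the larger in the CpG libraries.

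Set against the classical chains, the 10 genes together gave overlapping ranges. The summed RPKM of the 10 genes was 37.2%, 42.5% and 34.7% of that of H2-K1 and H2-D1 in CpG libraries 2, 3 and 4, against 36.9%, 36.8% and 37.4% in untreated libraries 2, 3 and 4. CpG library 3 was the highest of the 6 and CpG library 4 the lowest. H2-Q4, H2-Q6 and H2-Q7 alone amounted to 18.6%, 23.9% and 16.6% of the classical sum in CpG libraries 2, 3 and 4, against 13.1%, 15.2% and 12.5% in untreated libraries 2, 3 and 4, with no overlap. B2m over the summed heavy chains, in RPKM, was 1.41, 1.18 and 1.43 in CpG libraries 2, 3 and 4, against 1.44, 1.42 and 1.5 in untreated libraries 2, 3 and 4. CpG library 3 was the lowest, and the groups overlapped.

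Genes of class I assembly and peptide supply, with the classical chains, were measured in the same fit. This list and those that follow were also chosen with earlier results of these data known. Their counts beside all genes, and the p-values printed for their genes, are therefore a description and not a test of the lists. Not every member needs all of them, as H2-T10 and H2-T22 molecules bind no peptide. Of 16 assembly partners (beta-2-microglobulin, the classical chains, the peptide transporter and its helpers, chaperones and the immunoproteasome), none was called by edgeR, with 10 at an unadjusted p under 0.05, while DESeq2 called 2 and limma-voom 0. Over all genes DESeq2 called 439 of 17129 and limma-voom 41 of 11602. The 17129 are all genes with any count, and DESeq2 gave some of them no adjusted p, so its share of calls among genes it could call is higher. The share of all genes at that unadjusted p was not counted, so nothing is read from the unadjusted counts of this list or those that follow. With the replicate block 8 were called higher, against 4.73% of all genes. All 16 had a log2 fold change above 0, from 0.09 to 0.65 with a median of 0.28, beside -0.005 over all genes. With CpG higher, 8 of the 16 had groups that did not overlap, against 9.2% of all genes.

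Tap1, a chain of the transporter that carries peptides to class I molecules, had 772, 893 and 566 CPM in CpG libraries 2, 3 and 4, against 496, 487 and 435 CPM in untreated libraries 2, 3 and 4. It was higher in each CpG library, yet missed the threshold: the log2 fold change was 0.65 (SE 0.16, edgeR adjusted p = 0.103). With the block it was called (adjusted p = 0.000766), and over all alternatives its adjusted p ranged from 0.000766 to 0.318.

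H2-K1, a classical heavy chain, had 2990, 3100 and 2510 CPM in CpG libraries 2, 3 and 4, against 2420, 2030 and 1810 CPM in untreated libraries 2, 3 and 4. Its groups did not overlap, and the log2 fold change was 0.46 (SE 0.13, edgeR adjusted p = 0.169, 0.00176 with the block, and up to 0.47 over the alternatives). B2m, the light chain of all class I molecules, had 4410, 3930 and 3750 CPM in CpG libraries 2, 3 and 4, against 3740, 3160 and 3110 CPM in untreated libraries 2, 3 and 4. Its log2 fold change was 0.27 (SE 0.11, edgeR adjusted p = 0.344, 0.0222 with the block, and up to 0.705 over the alternatives). The lowest CpG library was only just above the highest untreated one. H2-D1, the other classical chain, was at 1410 ± 111 CPM in CpG and 1190 ± 69.9 CPM in untreated libraries (SD, n = 3 each) and was not called with or without the block.

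The 3 immunoproteasome subunits, which replace constitutive ones and alter the peptides cut for class I, were called higher with the block (adjusted p from 0.00272 to 0.0214) and not without it (0.193 to 0.338). Psmb8 had a log2 fold change of 0.42 (SE 0.17), Psmb9 of 0.49 (SE 0.17) and Psmb10 of 0.56 (SE 0.17), and in each of them untreated library 2 overlapped with CpG library 4. Tapbpl, a peptide editor, at 0.51 (SE 0.17), and Erap1, an aminopeptidase that trims peptides in the endoplasmic reticulum, at 0.30 (SE 0.12), were called higher with the block as well, and their groups did not overlap.

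Of 16 regulators of class I transcription, none was called by edgeR, with 4 at an unadjusted p under 0.05, while DESeq2 called 3 and limma-voom 0. With the replicate block 4 were called higher and 0 lower, against 4.73% and 3.78% of all genes. The median log2 fold change was 0.13, from -0.14 to 0.92, and 13 of the 16 lay above 0.

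Nlrc5, the transactivator that acts on class I promoters, had 321, 508 and 290 CPM in CpG libraries 2, 3 and 4, against 165, 224 and 203 CPM in untreated libraries 2, 3 and 4. Its groups did not overlap, and the log2 fold change was 0.92 (SE 0.22, edgeR adjusted p = 0.0900, 0.00145 with the block, and 0.00115 to 0.241 over the alternatives). Irf1, an interferon-induced activator of class I genes, had 391, 474 and 302 CPM in CpG libraries 2, 3 and 4, against 287, 265 and 252 CPM in untreated libraries 2, 3 and 4. Its log2 fold change was 0.54 (SE 0.16, edgeR adjusted p = 0.175, 0.00845 with the block, and up to 0.453 over the alternatives). Both Nlrc5 and Irf1 had CpG library 3 as the highest and CpG library 4 as the lowest CpG library, the order also seen in H2-Q4, H2-Q6, H2-Q7, H2-T10 and H2-T22. H2-T23, whose groups overlapped, and H2-M2, which was lower in the CpG libraries, had that order too. So did Tap1, H2-K1, Irf8, Stat2 and the class I-like gene Cd1d1, among others. The share of all genes with this order was not counted, so nothing is read from it.

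Irf8 (0.79, SE 0.24) and Stat2 (0.30, SE 0.13) were the other regulators called higher with the block, beside Nlrc5 and Irf1. The groups of Irf8 overlapped, with 82.5, 87.2 and 43.6 CPM in CpG libraries 2, 3 and 4, against 41.2, 44.9 and 37.0 CPM in untreated libraries 2, 3 and 4. Those of Stat2 did not overlap. The NF-kappaB genes Nfkb1 (1250 ± 89.8 CPM in CpG and 1180 ± 124 CPM in untreated libraries) and Relb (573 ± 11.1 CPM in CpG and 632 ± 52.7 CPM in untreated libraries; SD, n = 3 each) were called under neither fit.

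Of 30 other class I and class I-like genes, 26 had a row and 8 passed the filter on low counts, and none of the 8 was called by edgeR, with 6 at an unadjusted p under 0.05, or by DESeq2 or limma-voom. Their median log2 fold change was 0.14, from -1.01 to 0.97. With the block 1 was called higher, Fcgrt, and 3 lower, Mr1, Hfe and H2-M5, against 4.73% and 3.78% of all genes. Mr1, which presents vitamin B metabolites to mucosal-associated invariant T cells, had 3.56, 3.17 and 3.15 CPM in CpG libraries 2, 3 and 4, against 5.65, 6.38 and 6.88 CPM in untreated libraries 2, 3 and 4. The groups were well apart, and the log2 fold change was -0.93 (SE 0.20, edgeR adjusted p = 0.0710, 0.02 with the block, and up to 0.246 over the alternatives).

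Hfe, a regulator of iron uptake, was at 139 ± 4.05 CPM in CpG and 179 ± 21.8 CPM in untreated libraries (SD, n = 3 each), with a log2 fold change of -0.37 (SE 0.11). H2-M5, a further H2-M gene, was near the limit of counting, at 1.76 ± 0.396 CPM in CpG and 3.54 ± 1.23 CPM in untreated libraries. Fcgrt, the neonatal Fc receptor, was at 82.8 ± 4.92 CPM in CpG and 67.3 ± 6.85 CPM in untreated libraries. Cd1d1, which presents lipids, had 42.6 to 63.2 CPM in CpG and 44.1 to 59.1 CPM in untreated libraries, so that its groups overlapped.

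**Figure D5:**
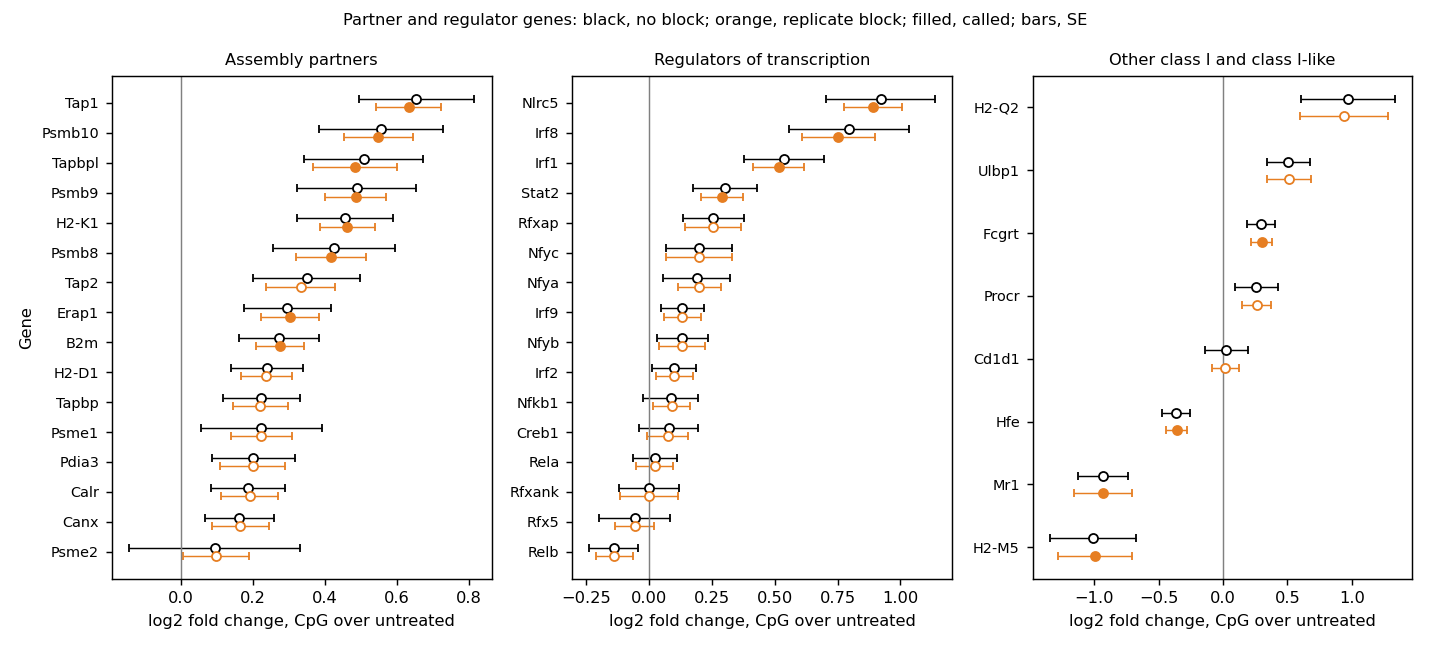
Log2 fold change of CpG over untreated (x axis) for the assembly partners, the regulators and the other class I-like genes in the fit (y axis), without the replicate block in black and with it in orange, bars giving the SE and filled points a call. No black point is filled, and the 16 partners all lie right of 0.

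Profiles across the 6 libraries were compared by the root mean square difference of log2 CPM, each gene centred on its own mean, over 8986 genes. The 6 libraries are shared by all genes and split into the same 2 groups, so likeness follows the group difference as well as the libraries. Among the members H2-Q4 and H2-T22 were the closest pair (0.0671), followed by H2-Q4 and H2-T10 (0.0678), H2-T10 and H2-T22 (0.1) and H2-Q6 and H2-Q7 (0.102). H2-M2 stood at 0.929 to 1.5 from the other 8.

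The genes most like H2-Q7 were Cd300e (0.0611), a myeloid surface receptor, H2-Q6 (0.102) and Gnb4 (0.109), a G protein subunit. Cd300e had 51.0, 74.4 and 40.8 CPM in CpG libraries 2, 3 and 4, against 26.4, 24.9 and 19.8 CPM in untreated libraries 2, 3 and 4. Those most like H2-T22 were H2-Q4 (0.0671), Tap1 (0.0913) and Irgm1 (0.0923), an interferon-induced GTPase. Irgm1 had 249, 276 and 166 CPM in CpG libraries 2, 3 and 4, against 144, 122 and 125 CPM in untreated libraries 2, 3 and 4.

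H2-M2 had no close match. The nearest were C1qa (0.331), a complement chain, Apoe (0.346), apolipoprotein E, and Meis3 (0.369), a homeobox gene. C1qa had 7.24, 8.37 and 8.06 CPM in CpG libraries 2, 3 and 4, against 18.6, 20.4 and 24.7 CPM in untreated libraries 2, 3 and 4. Apoe had 51.0, 64.8 and 56.3 CPM in CpG libraries 2, 3 and 4, against 156, 141 and 132 CPM in untreated libraries 2, 3 and 4. Both were lower in all CpG libraries, but their CpG library 4 was not the lowest, as it was in H2-M2.

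H2-M3 and H2-T23, whose groups overlap, had many near neighbours. Fastk (0.0229), Slc25a28 (0.0254) and Elp5 (0.0266) were the nearest to H2-M3, and Pkp3 (0.0335), Gpatch3 (0.0374) and Acaa1a (0.0387) to H2-T23. All 6 had overlapping groups as well.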

How the data were processed

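Per the file headers, the authors deposited a gene length and raw counts for each Entrez gene ID, in whole numbers. The submitters' processing notes name CASAVA, featureCounts and mm10. Versions, the aligner, strand setting, read length and the handling of multi-mapping reads are not stated there. Reads of a gene and an antisense partner cannot be told apart. The files of the 6 samples equalled the series table, and no 2 libraries of a group agreed within sampling noise. Symbols came from RefSeq (25275 of 27179 IDs).

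Counts were fitted with edgeR 4.0.16 in R 4.3.3: filterByExpr (minimum count 10, total 15), TMM scaling, robust two-sided quasi-likelihood F test, CpG against untreated with no block, Benjamini-Hochberg adjustment over 11602 genes. SEs were obtained from the F statistics. The fit was tested on simulated data. CPM use TMM-scaled library sizes, and RPKM divides these by the deposited length. 1 CPM is about 8 counts, which limits H2-Q10. Promoters were compared with Biopython 1.88.

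Same-numbered libraries deviated together from their group means (correlations 0.48, 0.25 and 0.31 for numbers 2, 3 and 4, and -0.39 to 0.07 for unequal numbers). The deviations of the 3 libraries of a group sum to 0, so these correlations are not independent of each other. A pairing by number rests on the data alone, as the labels do not say what the numbers mark. The principal fit therefore has no block, and a fit with the block is given where it changes a call.

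The members and lists were chosen with earlier results of these data known. Named genes are the members, listed genes called with or without the block, the 3 most abundant of each list, and the 3 genes most like each of 5 members (average log2 CPM of at least 3, official symbols only). Alternatives were other scalings, filters, DESeq2 1.42.0, limma-voom (limma 3.58.1), summed copies and leaving out each library. Comparison of the members' proteins was not run, and 1 listed regulator is not reported here.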

Additional observations from a re-analysis of the deposited data

How the results depend on the processing

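Of the members' log2 fold changes under the alternatives, 109 kept their direction and side of the threshold, 11 passed it, 9 no longer did and 2 turned. The 2 that turned were H2-M3, at 0.05 without CpG library 4 and 0.13 without untreated library 2. The count of genes called, 113 in the principal fit, was 439 by DESeq2, 41 by limma-voom, 189 with no filter on low counts and 988 with the replicate block (549 higher, 439 lower), and 0 to 386 with 1 library left out. The count was 0 by edgeR without CpG library 2 (1065 genes at an unadjusted p under 0.05) and without CpG library 3 (1107), and the fits without 1 library assume that the 2 left in its group vary like the 3 of the other. Of the members, 2 were called in the principal fit, 5 by DESeq2, 1 by limma-voom, 7 with the replicate block, 1 with near-identical copies summed, and 0 to 5 with 1 library left out. Of the listed partner, regulator and class I-like genes, 0 were called by edgeR in the principal fit (10 partners, 4 regulators and 6 class I-like genes at an unadjusted p under 0.05), 5 by DESeq2, 0 by limma-voom (9, 4 and 6), 16 with the replicate block (13 higher, 3 lower), and 0 to 5 with 1 library left out, the 5 being without CpG library 4. H2-M2 was called lower by every scaling, filter and tool run, and ranged from -1.98 to -1.68 with 1 library left out, while H2-M3 ranged from -0.080 to 0.13. The call of H2-Q7 was lost by limma-voom (1.15) and ranged from 0.98 to 1.33 with 1 library left out. The causes of these shifts were not tested. At these depths H2-Q10 and H2-M5 rest on few counts.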
